A study of Cyanidioschyzon merolae with 8 samples.

Results

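The 116 genes described here are nuclear genes of Cyanidioschyzon merolae that were already expressed in the dark and stood far higher after blue light and after red light. They were chosen from the authors' deposited table by 3 conditions: a locus on nuclear chromosomes 1 to 20, at least 10 FPKM in both dark controls, and a level at least 3.36-fold that of the dark control under each light. FPKM counts sequenced fragments per length of transcript and per total of mapped fragments. Of 4793 nuclear gene IDs, among 5091 IDs in all, 4315 passed the dark level, and 116 of these, 2.69%, also passed on both ratios. Because the levels and both ratios chose the genes, these values are given as a description, without a test.

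The study sequenced poly(A)-selected RNA of wild-type strain 10D in 8 libraries, 2 biological replicates in each of 4 groups. Cells of the groups BL(+) and RL(+) spent 36 h in darkness and then 30 min in light, blue at 15 µmol m-2 s-1 for BL(+) and red for RL(+). BL(-) and RL(-) are their dark controls, a separate one for each light, which also spent 36 h in darkness but had no light after it. All cultures had been grown in constant light, of 100 µmol m-2 s-1, in acid medium of pH 2.3 at 42 °C. The light meters read at 365 nm in the blue and at 630 nm in the red experiment, and no source used here gives the intensity of the red light. The table holds 1 FPKM value per condition with the replicates already combined, so no spread between replicates can be printed, and the depth of the libraries is unknown. Median FPKM over the nuclear IDs lay between 97.2 and 112 in the 4 conditions.

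C. merolae is a small red alga, found in hot acidic springs, whose single cell holds a nucleus, a plastid and a mitochondrion. Its plastid collects light with chlorophyll a and with phycobilisomes, antenna complexes that absorb mainly orange and red light, whereas chlorophyll a absorbs both blue and red light. Light can reach nuclear genes of algae through photoreceptors, such as the blue-light-absorbing cryptochromes, and through signals from photosynthesis in the plastid. Neither the table nor the reference list names these genes beyond their IDs, so no function is given for any of them here. All 116 matched an entry of the RefSeq list for assembly ASM9120v1, each as protein coding.

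In the light most of these genes stood above the median of all nuclear genes, and in the dark most stood below it. Their median level was 608 FPKM under blue light and 53.4 FPKM in its dark control, and 261 FPKM under red light and 39.6 FPKM in its dark control. As a percentile among all nuclear IDs, the median member stood at 92.8 under blue light and 29.3 in its dark control, and at 85.8 under red light and 19.8 in its dark control. Under blue light 67 of the 116 genes were in the top 10% of nuclear genes, against 7 in its dark control. Under red light 38 were, against 2 in its dark control. Below the median of nuclear genes were 2 members under blue light against 79 in its dark control, and 16 under red light against 103 in its dark control. Together the 116 genes held 10.3% of the summed nuclear FPKM under blue light and 1.28% in its dark control, and 5.16% under red light and 0.77% in its dark control. The RNA came from whole cultures, so a rise in every cell and a larger rise in only some of the cells cannot be told apart. FPKM is relative to the other transcripts of a culture and gives no amount per cell.

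**Figure D1:**
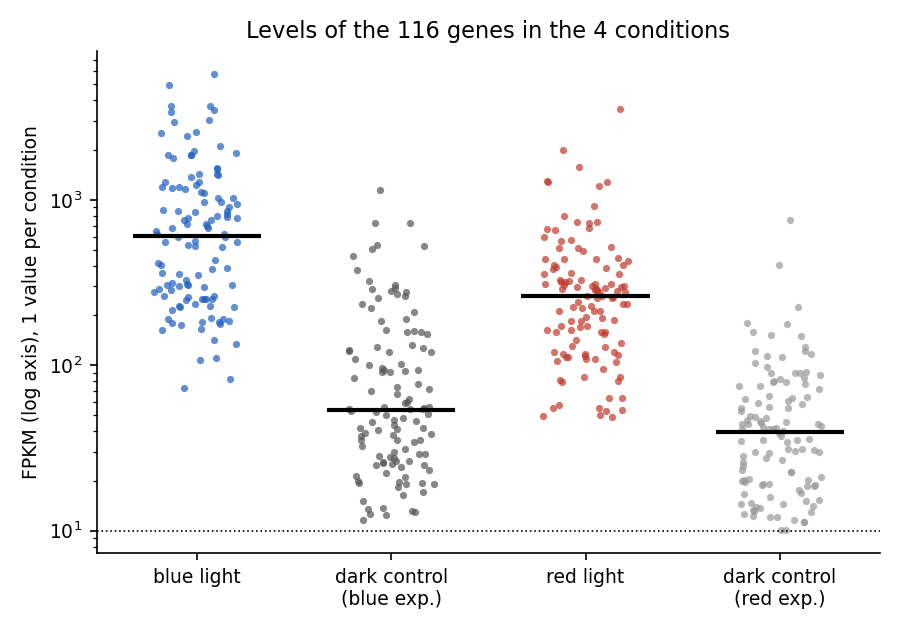
FPKM of the 116 genes (1 point per gene, log axis) under blue light, in its dark control, under red light and in its dark control, with the median as a bar and the dark level of 10 FPKM as a dotted line. The medians are 608, 53.4, 261 and 39.6 FPKM.

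Ratios of light over dark are given on the log2 scale unless written as a fold. They ran up to 6.01 under blue light, with a median of 2.89 (quartiles 2.28 and 4.10), which is 7.40-fold. Under red light they ran from 1.77 to 5.22, with a median of 2.45 (quartiles 2.11 and 3.01), which is 5.45-fold. The other 4199 nuclear genes over the dark level had median log2 ratios of -0.08 under blue light and -0.32 under red light. Both ratios were at least 2 in 87 members, at least 3 in 23 and at least 4 in 5.

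The 10 genes with the highest smaller ratio of the pair lie on 8 chromosomes. The positions below are those of the deposited loci, whose genome build no source used here gives. CMS308C, on chromosome 19 at 797693 to 798789, had 2591 FPKM under blue light against 41.9 FPKM in its dark control, and 512 FPKM under red light against 15.4 FPKM in its dark control. It was 61.9-fold higher under blue and 33.2-fold higher under red light, and is the only member with both log2 ratios above 5. CMJ212C, on chromosome 10 at 573971 to 574305, had 1428 FPKM under blue light against 55.9 FPKM in the dark, and 493 FPKM under red light against 13.2 FPKM. Its red ratio of 5.22 is the highest of all members, yet in the authors' deposited table it did not pass the q-value of 0.05 used here under red light (q = 0.103).

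The next 3 genes also had both log2 ratios above 4. CMN237C, on chromosome 14 at 582257 to 583037, had 1023 FPKM under blue light against 37.8 FPKM in the dark, and 278 FPKM under red light against 13.8 FPKM. CMD051C, on chromosome 4 at 137943 to 139305, had 1862 FPKM under blue light against 35.5 FPKM, and 444 FPKM under red light against 24.5 FPKM. CMM134C, on chromosome 13 at 306539 to 307991, had 3506 FPKM under blue light against 93.1 FPKM, and 662 FPKM under red light against 40.9 FPKM. In each of the 3 the blue ratio exceeded the red one, by 0.42, 1.53 and 1.22 log2 units in the order given.

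The remaining 5 of these 10 had smaller ratios between 3.60 and 3.98. CMQ113C, on chromosome 17 at 269024 to 269534, had 3721 FPKM under blue light against 160 FPKM, and 738 FPKM under red light against 46.8 FPKM. CMG201C, on chromosome 7 at 526455 to 528268, had 559 FPKM under blue light against 21.4 FPKM, and 131 FPKM under red light against 10.0 FPKM, which is just at the dark level of the rule. CMJ042C, on chromosome 10 at 120538 to 121751, had 3708 FPKM under blue light against 129 FPKM, and 919 FPKM under red light against 75.3 FPKM. The last pair, unlike these, had the higher ratio under red light. CMR237C, on chromosome 18 at 590067 to 591184, had 1161 FPKM under blue light against 95.8 FPKM, and 286 FPKM under red light against 12.1 FPKM. CMJ105C, on chromosome 10 at 307877 to 308966, had 673 FPKM under blue light against 55.6 FPKM, and 172 FPKM under red light against 11.3 FPKM.

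**Figure D2:**
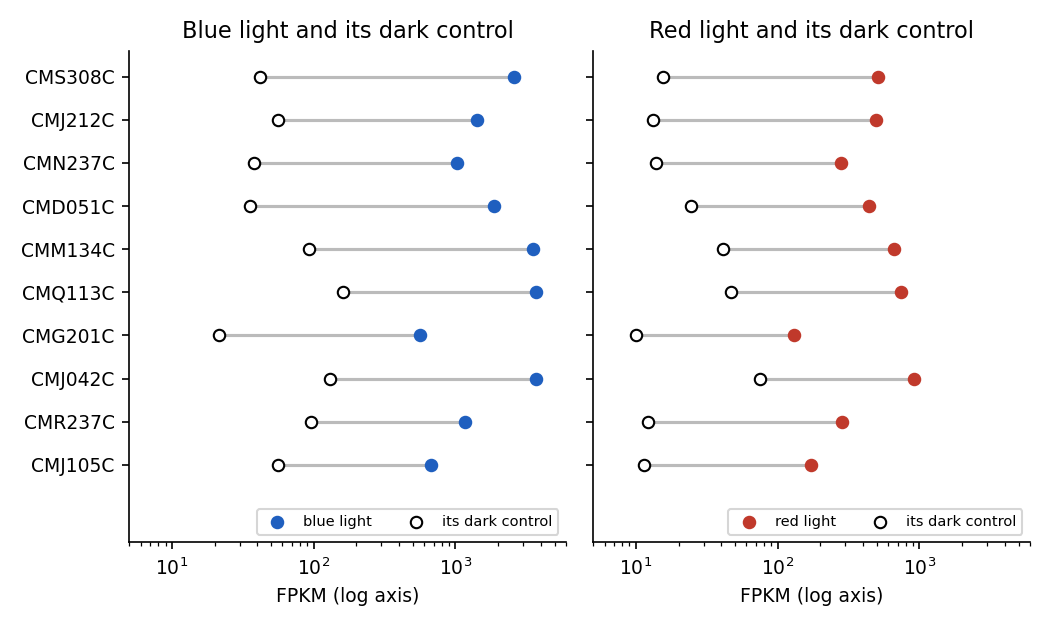
FPKM (log axis) of the 10 genes with the highest smaller ratio, filled under light and open in its dark control, for blue light (left) and red light (right). The blue light points lie between 559 and 3721 FPKM and the red light points between 131 and 919 FPKM, all above their dark controls.

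Of the 6 members with the highest mean level in the light, CMJ042C and CMQ113C are among the 10 above, and the other 4 are not. CMI233C, on chromosome 9 at 630481 to 631579, reached 5809 FPKM under blue light against 324 FPKM in its dark control, and 2000.1 FPKM under red light against 179 FPKM, the highest blue level of the 116. CMN084C had 4934 FPKM under blue light against 1155 FPKM, and 1282 FPKM under red light against 153 FPKM. CMT172C had 2446 FPKM under blue light against 726 FPKM, and 3569 FPKM under red light against 756 FPKM, the highest red level. CMN023C had 3393 FPKM under blue light against 729 FPKM, and 1278 FPKM under red light against 226 FPKM. CMN084C, CMT172C and CMN023C also had the 3 highest means of both dark controls. Their blue ratios of 2.10, 1.753 and 2.22 lie below the lower quartile of the members, and their red ratios lay between 2.24 and 3.06, beside a median of 2.45 in the members. At the other end stand CMT453C, CMN319C and CML055C, with the lowest mean dark level. CMT453C had 72.5 FPKM under blue light against 12.4 FPKM, and 55.4 FPKM under red light against 13.4 FPKM. CMN319C had 192 FPKM under blue light against 17.2 FPKM, and 52.8 FPKM under red light against 10.1 FPKM. CML055C had 185 FPKM under blue light against 15.1 FPKM, and 63.2 FPKM under red light against 12.6 FPKM.

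In the authors' deposited table, all members were tested under both lights, and 111 of 116 passed a q-value under 0.05 in both comparisons. Among all genes tested, 22.2% rose under blue light, 14.9% under red light and 10.6% under both. The members were chosen by the same ratios, so their count carries no further weight. The 5 exceptions are CMB148C, CMG215C, CMB021C, CMJ212C and CMR404C. CMB148C had q = 0.0833 under blue and 0.242 under red light, and CMG215C had q = 0.372 and 0.358. CMB021C, CMJ212C and CMR404C passed under blue light and had q = 0.0626, 0.103 and 0.113 under red light in the authors' deposited table. Short loci are frequent among them. CMG215C, CMR404C and CMB148C span 205, 240 and 256 bp and are the only members under 300 bp, and CMJ212C spans 334 bp. CMB021C, at 1786 bp, is long, with 2957 FPKM under blue light against 155 FPKM, and 728 FPKM under red light against 98.1 FPKM. Whether locus length bears on these q-values was not tested.

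The higher log2 ratio was the blue one in 83 members, 71.6%, and in 61.9% of the other nuclear genes over the dark level. The median difference, blue minus red, was 0.48 log2 units in the members (quartiles -0.12 and 1.11) and 0.22 in those other genes. The members' median was 0.30 with ratios centred on the nuclear median and 0.31 at a dark level of 20 FPKM. Across the 116 genes the ratios ranked alike to a moderate degree, with a Spearman's rho of 0.46, within a range that the rule cuts off on both axes. These comparisons share no libraries. In 76 members the ratios lay within 1 log2 unit of each other. In 36 members, 31.0% of the set, the blue ratio was at least 1 unit higher, and in 4 the red ratio was. Among the other nuclear genes over the dark level these shares were 17.0% and 7.79%. No test of these differences between the lights can be made from 1 value per condition. Both ratios also chose the members, so the shares and medians beside the other genes are a description only.

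**Figure D3:**
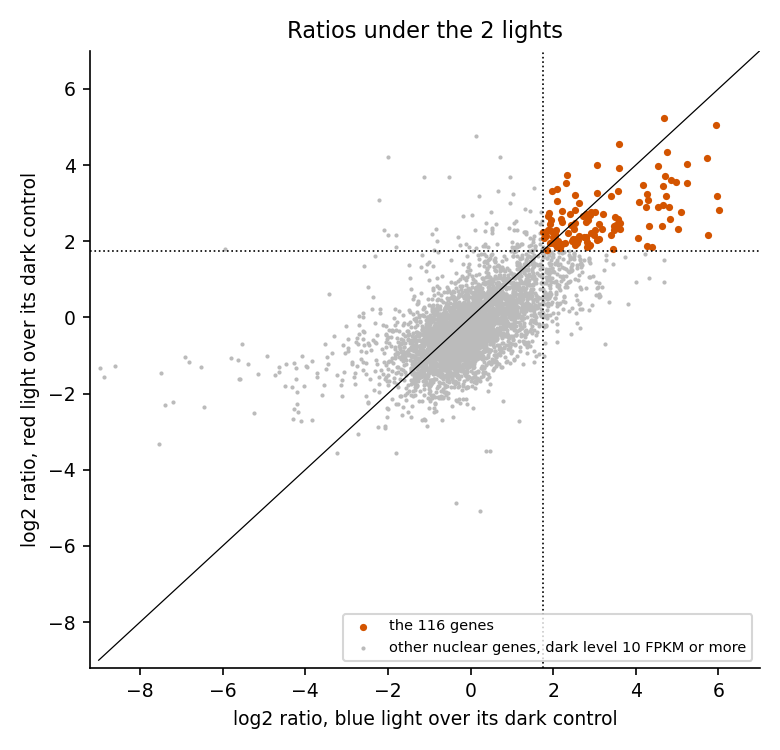
Log2 ratio of red light over its dark control (y) against that of blue light over its dark control (x) for nuclear genes with at least 10 FPKM in both dark controls and both ratios defined, with the 116 genes in orange, the thresholds of 3.36-fold as dotted lines and equal ratios as a solid line. More of the orange points lie below the line of equal ratios (83) than above it (33).

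The difference between the ratios contains the difference between the dark controls, so the genes at either extreme are given as values only. Of the 36 members with a blue ratio at least 1 unit higher, 18 had a higher level in RL(-) than in BL(-), and the 5 that leaned most towards blue light were among these. CME120C had 1548 FPKM under blue light against 29.0 FPKM, and 358 FPKM under red light against 80.1 FPKM. CME023C, with the highest blue ratio of all members, had 848 FPKM under blue light against 13.2 FPKM, and 406 FPKM under red light against 58.0 FPKM. CMF098C had 1551 FPKM under blue light against 24.95 FPKM, and 730.5 FPKM under red light against 79.7 FPKM. The other two were CMG058C and CME172C, with blue ratios of 5.02 and 4.39 and red ratios of 2.33 and 1.86. In these 5 genes log2 FPKM in RL(-) minus that in BL(-) was 0.85 to 2.14, and the same difference between RL(+) and BL(+) was -2.11 to -1.06.

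The 5 genes that leaned most towards red light had lower levels in RL(-) than in BL(-), as had 76.7% of all members. CMN227C had 1410 FPKM under blue light against 281 FPKM, and 282 FPKM under red light against 21.1 FPKM. CMT329C had 304 FPKM under blue light against 77.1 FPKM, and 112 FPKM under red light against 11.3 FPKM. CMS351C had 2126 FPKM under blue light against 502 FPKM, and 667 FPKM under red light against 64.9 FPKM. CMN109C and the abundant CMN084C completed the group, with red ratios of 3.53 and 3.06 and blue ratios of 2.30 and 2.10. In all 5 the level under red light was below that under blue light, and log2 FPKM in RL(-) minus that in BL(-) was -3.73 to -2.78.

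The order of the members by level was then compared between the experiments. Between red light and blue light, Spearman's rho across the 116 genes was 0.86, and between the dark controls it was 0.66. In the other 4199 nuclear genes the values were 0.79 and 0.80. These are correlations across genes, which are not replicates, and the rule used these same levels. Why rho between the dark controls differed between the groups was not tested. Most members were lower in the red experiment in both states. The levels compared are those that chose the members. A high level in BL(+) raises the blue ratio, and a low level in RL(-) raises the red one. The shares that follow are therefore a description only. Under red light 107 of 116, 92.2%, were below their level under blue light, with a median log2 difference, red minus blue, of -1.41. In RL(-) 89, 76.7%, were below their level in BL(-), with a median of -0.55. Of the other nuclear genes over the dark level, 57.2% were lower under red than under blue light and 40.2% were lower in RL(-). The medians of those genes were -0.14 for the lit cells and 0.20 for the dark controls. No source used here says whether all 4 conditions were scaled together, and the light, its intensity and the experiment differ together, so they cannot be told apart.

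**Figure D4:**
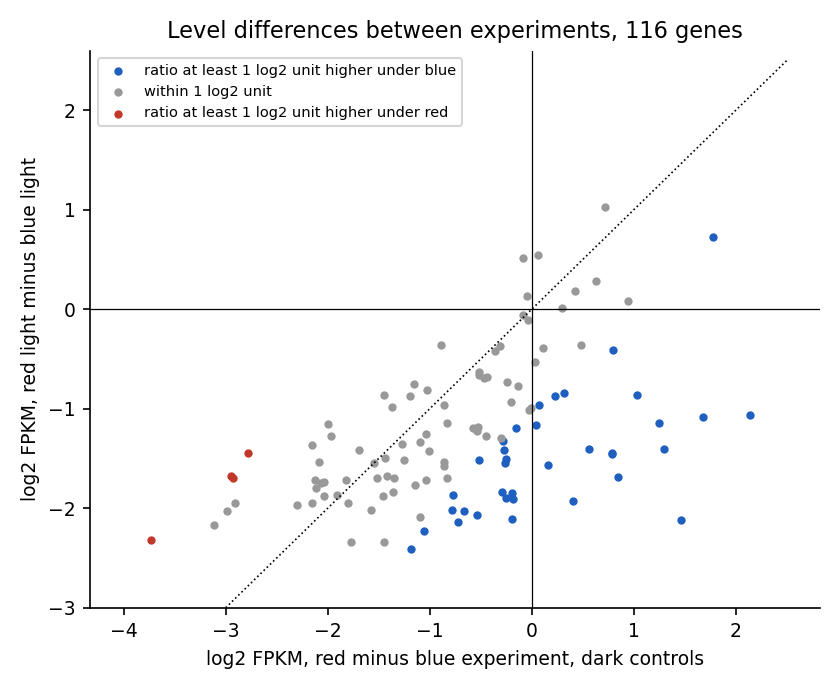
Log2 FPKM under red light minus that under blue light (y) against log2 FPKM in RL(-) minus that in BL(-) (x), 1 point per gene. On the dotted line both ratios are equal. Of the 116 points, 107 lie below 0 on the y axis and 89 lie left of 0 on the x axis.

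In RL(-) 27 of 116 members were above their level in BL(-), and under red light 9 were above their level under blue light. These 9 genes, named after their values were seen, were CMF094C, CMG086C, CMJ086C, CML285C, CMQ190C, CMQ270C, CMR373C, CMT172C and CMT526C. The widest was CMR373C, with 395 FPKM under red light against 89.3 FPKM in its dark control, and 193 FPKM under blue light against 54.4 FPKM. CMQ270C had 1295 FPKM under red light against 159 FPKM, and 781 FPKM under blue light against 46.2 FPKM. At the near-level end, CML285C had 571 FPKM under red light and 564 FPKM under blue light.

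Genes lay close to the bounds on either side. Just inside the bound of 3.36-fold were CMT172C, CMJ234C and CMQ382C, with smaller ratios of 3.37-fold, 3.41-fold and 3.41-fold. Just outside were CMT252C, CML177C and CMI294C, with smaller ratios of 3.357-fold, 3.354-fold and 3.31-fold. On the dark level, CMG201C, CMN319C and CMT329C were nearest above 10 FPKM, at 10.0, 10.1 and 11.3 FPKM in RL(-). CMQ397C, CMM163C and CMT412C, at 9.81, 9.79 and 9.71 FPKM there, passed on both ratios but not on the dark level.

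The set is the shared part of 2 longer lists. Of the nuclear genes over the dark level, 7.62% passed 3.36-fold under blue light, 329 genes, and 4.54% under red light, 196 genes. The members are 35.3% of the first list and 59.2% of the second. The 213 genes that passed under blue light alone had a median red ratio of 0.97, and 197 of them stood above 0 under red light. The 80 that passed under red light alone had a median blue ratio of 0.98, with 62 above 0 under blue light. Over all 4199 non-members above the dark level, both lists included, the median was -0.32 for the red and -0.08 for the blue ratio. These 80 genes had a median of 52.0 FPKM in RL(-) and 341 FPKM in BL(-). The 213 genes had a median of 31.7 FPKM in BL(-) and 53.6 FPKM in RL(-). Each list was chosen by a ratio whose divisor is the lower of its 2 dark medians.

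A further 74 nuclear genes with both ratios defined passed on both but lay under 10 FPKM in at least 1 dark control. Their medians were 108 FPKM under blue light against 7.46 FPKM in its dark control, and 40.2 FPKM under red light against 5.10 FPKM in its dark control. Like the members, which were chosen by the same ratios, most were lower in the red experiment. Under red light 69 of the 74, 93.2%, were below their level under blue light, with a median log2 difference of -1.37. In RL(-) 49, 66.2%, were below their level in BL(-), with a median of -0.80. The median log2 ratios were 2.89 and 2.45 in the 116 members, and 3.50 and 2.96 in these 74 genes. The 74 were set apart by a low dark level, which is the divisor of these ratios, so the medians are not like for like. Their dark levels went down to 0.000592 FPKM in BL(-) and 4.22e-05 FPKM in RL(-), with no pseudocount added. Genes with no measured level in a dark control have no defined ratio and were left out.

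Locus length was not part of the rule. The members' loci spanned 205 to 4148 bp, with a median of 1112.5 bp, and those of the other 4199 genes had a median of 1317 bp. Among 4 length classes of about equal size, members made up 3.70% of the shortest, 2.69% and 3.43% of the middle ones and 0.927% of the longest, which starts at 2004 bp. Over all genes above the dark level the red ratio went down with length, with a Spearman's rho of -0.33, while the blue ratio did not, at 0.0022. In the longest class 19 of 1079 genes passed 3.36-fold under red light, against 82 of 1081 in the shortest, and under blue light 56 and 83 did. Within the 116 members, rho with length was -0.12 for the red and 0.07 for the blue ratio. The part of the length trend in the make-up of the set was not tested.

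Members occurred on all 20 nuclear chromosomes. Their share of the genes over the dark level ran from 0.769% on chromosome 3, with 1 member, to 5.09% on chromosome 10, with 11 members. Chromosome 17 held the most, 12 of 329 genes.

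Some members were direct neighbours. Of 232 positions next to a member, 14 held another member, 6.03%, and of the 4680 nuclear loci 2.48% hold one. At 2 steps away 0 of 232 positions held a member, and at 3, 5 and 10 steps 1.73%, 2.62% and 2.67% did. The 14 genes form 7 neighbouring pairs. Their number depended on the rule and on the size of the set. Where both log2 ratios had to be at least 2, it was 4 of 87 members. Where the dark level had to be at least 20 FPKM, it was 2 of 78. No share of positions was computed for these smaller sets, so an excess over all loci is described for the main set only. CMS308C and CMS309C, 528 bp apart on chromosome 19, had 2591 and 556 FPKM under blue light against 41.9 and 19.98 FPKM in its dark control. Under red light they had 512 and 307 FPKM, against 15.4 and 40.9 FPKM in its dark control. CMT329C and CMT330C, 312 bp apart on chromosome 20, had ratios of 1.98 and 2.37 under blue light and 3.31 and 2.22 under red light. CMM212C and CMM214C, 176 bp apart on chromosome 13, had ratios of 2.16 and 2.83 under blue light and 1.81 and 1.99 under red light.

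The other 4 pairs were farther apart, from 671 to 5149 bp. CMJ233C and CMJ234C on chromosome 10 had ratios of 2.53 and 1.77 under blue light and 1.91 and 2.09 under red light. CMN227C and CMN228C on chromosome 14 leaned opposite ways, at 2.33 and 4.27 under blue light and 3.74 and 1.88 under red light. CMG058C and CMG059C on chromosome 7 had 5.02 and 3.02 under blue light and 2.33 and 2.78 under red light. CMJ084C and CMJ086C on chromosome 10 had 4.05 and 1.95 under blue light and 2.09 and 2.56 under red light. CMJ084C shares its locus with another ID, as does CMG188C, and the library protocol names no step that marks strand, so reads at such loci may not be assigned to 1 gene.

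The genes around the members were described in the same way, leaving out those that are members themselves. Of those tested at the next locus, 61 of 204 rose under blue light, 29.9%, and 40 of 201 under red light, 19.9%, in the authors' deposited table. Over all nuclear non-members tested, 20.2% rose under blue light and 12.3% under red light. At 2, 3, 5 and 10 steps the shares were 16.8% to 20.8% under blue light and 10.6% to 12.5% under red light. Where the gap was under 500 bp, 18 of 35 neighbours rose under blue light, 51.4%, and 11 of 34 under red light, 32.4%. Where it was 500 bp or more, 25.4% and 17.4% did. These shares are over genes of the same libraries and have no test, and how many reads run across such short gaps was not tested.

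**Figure D5:**
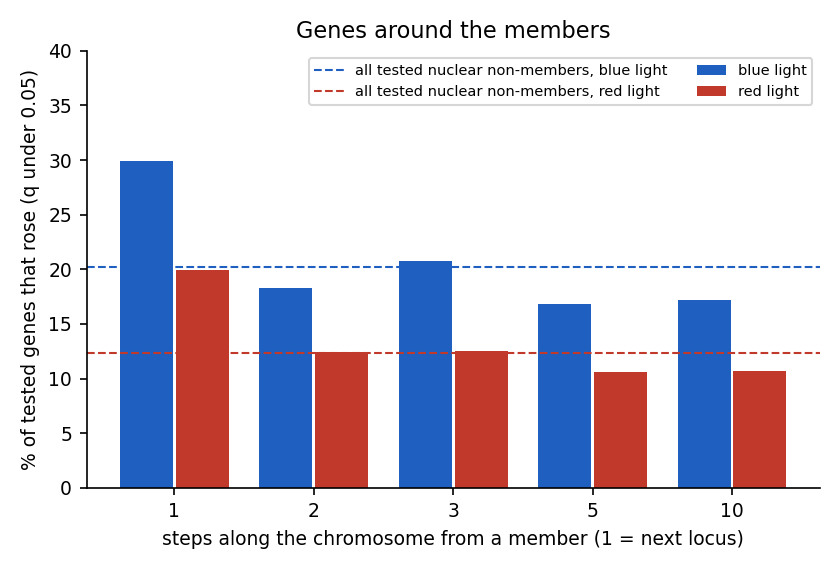
Share of tested non-member genes that rose (authors' q under 0.05) at 1, 2, 3, 5 and 10 loci from a member, under blue and red light, with the share over all tested nuclear non-members as dashed lines. At 1 step the shares are 29.9% and 19.9%, and at 2 or more steps they lie at 16.8% to 20.8% and 10.6% to 12.5%.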

How the data were processed

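RNA of 8 libraries was sequenced as pairs of 75 bp reads. Per the submitters' processing notes, tools included Cuffdiff, TopHat2 2.0.5, Trimmomatic 0.32 and FastQC 0.11.5; no source used here gives the build or annotation. The authors deposited FPKM values, 1 per condition, and a p-value and q-value per gene and comparison. The set of tests behind the q-values is not stated. Their own mark follows a q-value under 0.01; here 0.05 was used.

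Log2 ratios of light over dark were computed from the deposited FPKM with no pseudocount, and members needed at least 1.75 under both lights. No test over libraries was possible, and intervals for medians are exact binomial 95% intervals over genes. The members and lists were chosen with earlier results of these data known. Genes were named by a rule: extremes of the smaller ratio, lit level, dark level and ratio difference, neighbouring members, members without a q-value under 0.05, and those nearest each bound. Neighbours were taken in the order of deposited loci. A planned search of promoters and proteins was not run. Selection and ordering code was tested on simulated data with dark levels above 10 FPKM and planted ratios well above 1.75. That test did not try genes near either bound. Python 3.11.15, numpy 2.4.6, pandas 2.3.3, scipy 1.17.1 and matplotlib 3.10.9 were used.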

Additional observations from a re-analysis of the deposited data

How the results depend on the processing

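No paired analysis was possible because the table holds 1 value per condition, and for the same reason no replicate could be left out. Each median was compared with its exact binomial 95% interval over the 116 genes, and each count with a factor of 1.5. That interval describes the spread over genes chosen by the rule, which are not replicates, so staying within it is no test. Of 74 alternative values, 65 stayed within these limits, 9 moved and 0 reversed. Most of them could not reverse, because the rule bounds both ratios from below and counts and lengths have no sign. Each alternative set also lay within the main set or contained it, so the tally is a description of overlapping sets. With both ratios at least 1.5 the set grew to 176 genes, with medians of 2.52 under blue and 2.15 under red light. The number of members beside another member, 14 in the main set, depended most on the rule. It was 34 of 176 with ratios of at least 1.5 and 4 of 87 with ratios of at least 2. At a dark level of 5 FPKM it was 25 of 140, and at 20 FPKM 2 of 78. With 5 FPKM added before the log it was 8 of 102, and with ratios centred on the nuclear median 26 of 158. Larger sets also hold more loci, and no share over all loci was set beside these counts. Ratios of at least 2 left 87 genes, a dark level of 20 FPKM 78, and centring gave 158. The median red ratio taken off in centring was -0.26. The lit level, red minus blue experiment, kept its sign, at -1.52 to -1.30. Adjusting p-values within each comparison, chosen after seeing the data, left 111 members past 0.05 under both lights, and the authors' mark 106. Depth is unknown, so the precision of single low values, such as those near 10 FPKM, cannot be stated.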
